A study of Mus musculus with 48 samples.

Results

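The immediate early AP-1 genes are a set of 10 genes, most of which cells switch on within minutes of a stimulus, without making new protein first. They were chosen by name, as Fos, Fosb, Jun, Junb, Jund, Atf3, Egr1, Ier2, Dusp1, and Zfp36, and all 10 were among the 34586 genes of the count table. AP-1 is a dimer of basic leucine zipper proteins, in which a Fos protein binds DNA only with a Jun partner. Fos and Fosb are the Fos partners here, and Jun, Junb, and Jund are the Jun partners. Atf3 is a stress-induced leucine zipper protein that can pair with them, and Egr1 is a zinc finger factor induced by the same kinases. Dusp1 is a phosphatase that switches these kinases off, and Zfp36 (tristetraprolin) binds AU-rich elements and speeds the decay of cytokine mRNA such as that of Tnf. In inflamed joints, AP-1 is known as an activator of matrix metalloproteinases and cytokines. The same genes are also known to be induced when tissue is cut and digested into single cells.

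The cells came from male DBA1/J mice aged 8 to 12 weeks, of which 4 were healthy and 6 had collagen-induced arthritis (CIA). CIA mice were immunized with bovine collagen II in complete Freund's adjuvant and boosted in incomplete adjuvant, whereas healthy mice were injected with saline. Single-cell RNA was counted with Seq-Well in 48 samples, 8 from joint (3 healthy, 5 CIA) and 10 each from lung, muscle, skin, and spleen (4 healthy, 6 CIA). Arthritis scores were 8 in S1, S2, and S3, 4 to 5 in S5, 3 to 4 in S6, and 2 to 3 in S8, and the mice with a score of 8 all belong to the experiment 2CIA, as does healthy mouse H3. Severity and experiment cannot be told apart among CIA mice.

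Every organ was frozen, thawed, and then taken apart. Joint was digested with 1.5, lung with 1.8, muscle with 2.0, and skin with 2.6 mg/mL collagenase. Spleen was pressed through a strainer without enzyme and treated with red cell lysis buffer. Among muscle samples, those of H6, H7, S2, S3, S6, and S8 had red cells lysed and the others did not. The labels give 120 minutes of digestion for all 4 organs, whereas the methods tables of the study give a shorter time for skin, so the time may differ between skin and the other organs. For an effect of organ, the tissue and its preparation cannot be told apart.

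A unique molecular identifier (UMI) marks 1 captured mRNA 3′ end, so UMI levels are not scaled by gene length. Levels are given as CPM, the UMIs of the gene scaled to the same total (1e6) of all UMIs in the cells summed per mouse, and the mouse is the replicate. The 12096 cells with a deposited type held 30 to 1989 cells and 17748 to 1645734 UMIs per sample. Among annotated cells, 105 carried a barcode found in 2 or more samples, and muscle and spleen of mouse S8 shared 34 barcodes. Each deposited type had UMIs of its own markers over all mice, but some labels were weakly supported in single mice. Joint T cells of H4 and S3 had 0 UMIs of the T cell markers, among them Bcl11b, Il7r, and Lef1. Of the NK cell markers Klrk1, Il18rap, and Gzma, cells labelled NK cells in muscle had 0 CPM in H6 and H7 and 45.1 CPM in S2, and 588 CPM in S8, the mouse whose muscle and spleen share barcodes. Cells labelled myocytes had 0 to 84.1 CPM of 10 myocyte markers. Results on these labels are results on the labelled cells.

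Of the 10 genes, 8 had an upstream sequence in the RefSeq promoter table (GRCm38.p6). The 250 bases before each start were searched on both strands for an AP-1 element (TGANTCA), a cyclic AMP or AP-1 type element (TGACNTCA), the shorter core TGACGT, and the CArG box bound by serum response factor. The core TGACGT overlaps some TGACNTCA matches. A match was found in 5 genes, and the sequence around it is shown because these are the elements through which such stimuli are known to act, with the match in capitals, 5′ to 3′ on the strand of the gene.
Fos (chr12:85473812-85473841, plus strand): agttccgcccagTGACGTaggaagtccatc
Jun (chr4:95052249-95052278, minus strand): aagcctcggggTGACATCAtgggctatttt
Atf3 (chr1:191183334-191183353, minus strand): attaatagcattACGTCAgc
Dusp1 (chr17:26508597-26508626, minus strand): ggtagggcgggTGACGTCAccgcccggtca
Zfp36 (chr7:28379267-28379296, minus strand): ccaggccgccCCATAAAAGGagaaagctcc
The Fos match begins 66 bases before the start, the Jun match 45, the Atf3 match 8, the Dusp1 match 143, and the Zfp36 match 58 bases before it. Dusp1 had another TGACGT match that began 191 bases before its start. No match was found in Fosb, Junb, and Jund, and these letters say nothing of elements outside the window. Among 32851 promoters of the same length, TGANTCA was present in 6.75%, TGACNTCA in 7.49%, TGACGT in 6.47%, and the CArG box in 1.47%.

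The 10 genes held 72372 of 10646725 UMIs of annotated cells, or 0.68%. Junb gave the largest share of these (27.3%), followed by Jun (14.1%), Fos (12.7%), Ier2 (10.2%), and Egr1 (7.85%). Jund, Dusp1, Zfp36, Atf3, and Fosb gave between 5.05% and 6.35% each. The annotation (GENCODE, GRCm38) places Junb at chr8:84974484-84978718, overlapping Prdx2 on the opposite strand, and Dusp1 at chr17:26505590-26562128, overlapping Ergic1. For Dusp1, Atf3, Jund, and Zfp36, the start used in the motif search lies away from the gene start of this annotation. The search in these genes therefore holds for the RefSeq start alone. Whether the counting used strand is not given in the sources used here, so UMIs of such partners cannot be told apart with certainty. Fos, at chr12:85473890-85477273, and Fosb, at chr7:19302696-19310051, overlap no other annotated gene.

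Endothelial cells and fibroblasts of muscle and joint had the highest summed medians among the 23 organ and cell type pairs in which 3 or more mice gave sums of 10 cells or more. The summed level of the 10 genes was 12280 to 17080 CPM in muscle endothelial cells (median 14160, n = 4) and 8062 to 19370 in joint endothelial cells (median 13750, n = 5). Muscle fibroblasts had 9830 to 14400 CPM (median 11890, n = 8) and joint fibroblasts 6790 to 13220 (median 11140, n = 6). Skin fibroblasts were lower in the order, below spleen monocytes and cells labelled NK cells in muscle, with 5396 to 10060 CPM (median 7916, n = 9). The ranges of neighbours in this order overlapped, as they did for all 22 neighbouring pairs of the full order.

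Spleen monocytes had the highest median among leukocytes (8567 CPM, 5121 to 11230, n = 10), next to cells labelled NK cells in muscle (8410, 6241 to 9663, n = 4). Macrophages were lower, with medians of 5261 CPM in muscle, 4881 in joint, and 4372 in lung. The lowest medians were in joint granulocytes (4049 CPM, n = 5), muscle myocytes (3766, n = 3), and spleen erythrocytes (3053, n = 6).

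**Figure D1:**
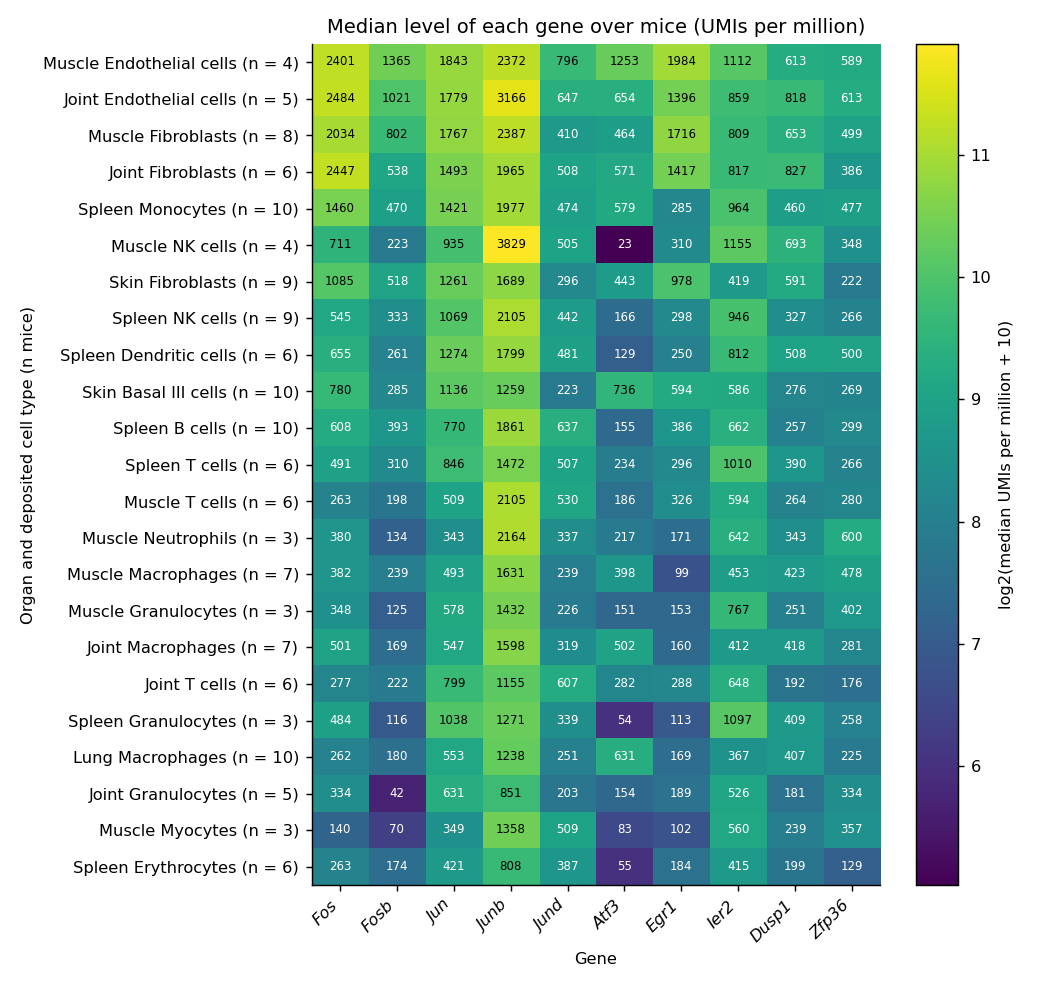
Median level of each gene over mice, in CPM, with organs and cell types in rows (n is the number of mice) and genes in columns; the colour shows log2(median + 10). Endothelial cells and the fibroblasts of joint and muscle fill the top rows, and Junb stands out in muscle NK cells at 3829.

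The mixture of genes varied between cell types. With mice pooled, Fos was the largest of the 10 in joint and muscle fibroblasts, with 22.0% and 19.2% of their UMIs. Junb gave 18.1% and 16.7%. In muscle fibroblasts, S5 held 2828 of these 4985 UMIs. Per mouse, the median share there was 17.5% for Fos (14.5% to 22.3%) and 19.0% for Junb (13.1% to 27.0%, n = 8). Fos thus did not lead in muscle fibroblasts by the median over mice. Egr1 gave 13.6% in joint and 16.4% in muscle fibroblasts, against 2.71% in spleen monocytes and 2.74% in spleen granulocytes. Junb gave 24.8% in skin fibroblasts, 21.3% in spleen monocytes, 28.5% in lung macrophages, and 45.05% in muscle T cells. Per mouse, the Junb share in muscle T cells ran from 13.5% in H4 to 48.2% in S2 (median 41.5%, n = 6), and S2 and S6 held most of the UMIs. Atf3 had its largest shares in lung macrophages (14.4%), Basal III cells of skin (11.3%), and joint macrophages (10.9%). It gave 6.91% in muscle macrophages, below muscle endothelial cells (7.16%), and 0.617% in muscle NK cells. Ier2 had its largest share in spleen granulocytes (21.3%), where Jun had 21.6% and Junb 22.0%. Cells of 1 mouse share a library, so these shares describe the libraries and were not tested.

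At equal depth, the share of cells with at least 1 Fos UMI was also highest in endothelial cells and fibroblasts of joint and muscle. Its order differed from that of the summed levels. When each cell was thinned to 400 UMIs, a depth that all 12096 annotated cells had, the median share over mice was 54.7% in joint fibroblasts and 44.6% in muscle fibroblasts, against 29.7% in skin fibroblasts, 12.8% in spleen erythrocytes, and 6.25% in muscle myocytes. Without thinning these shares were 70.8%, 56.0%, 39.1%, 18.4%, and 9.38%. Spleen monocytes had 37.69% with thinning and 60.15% without, which was then above muscle fibroblasts. Median UMIs per cell ranged from 679 to 1472 in joint fibroblasts and from 567.5 to 1012 in spleen erythrocytes. No cell type here is known to lack Fos, so the part of free RNA in these shares was not tested.

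CIA and healthy mice were compared to ask whether these genes differ with arthritis in the same cell type and organ. In the 11 comparisons, 90 tests of the 10 genes passed the filter on low counts and 2 were called at an adjusted p below 0.05 (edgeR quasi-likelihood test, Benjamini-Hochberg over all genes tested), both lower in CIA. They were Fos in joint macrophages and Fosb in spleen monocytes. Over all genes in these comparisons, 1.33% of tests were called. Both genes passed the filter through the healthy mice, the group where they are high, so that the filter favoured a lower estimate in CIA, and neither was called with no filter.

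In joint macrophages, Fos was called lower in CIA mice. It stood at 1186, 1429, and 899 CPM in H3, H4, and H7 and at 501, 221, 410, and 251 CPM in S1, S3, S5, and S8. All CIA mice lay below all healthy mice. The log2 fold change was -1.70 ± 0.31 (SE, adjusted p = 0.010, 3 healthy and 4 CIA mice). Of the 273 genes tested in this comparison, 9.89% were called. The sums of healthy mice rested on 17 to 27 cells and 16 to 49 Fos UMIs each. Those of CIA mice rested on 21 to 110 cells and 4 to 54 Fos UMIs, with 4 each in S3 and S8. Within the experiment CIA alone (H4 and H7 against S5 and S8) it was -1.71 (adjusted p = 0.154), and within 2CIA the level was 1186 CPM in H3 against 501 and 221 CPM in S1 and S3, which was not tested apart. The filter asked for 552 CPM in 3 mice, which 3 of 3 healthy and 0 of 4 CIA mice reached. With no filter the log2 fold change was -1.12 (adjusted p = 0.608).

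The other 3 of the 10 genes that passed the filter in joint macrophages were also estimated lower, without passing the test. Junb had a log2 fold change of -0.72 ± 0.26 (adjusted p = 0.14), Jun of -1.01 ± 0.50 (adjusted p = 0.30), and Atf3 of -0.97 ± 0.41 (adjusted p = 0.22). Jun and Atf3 each reached the filter's 552 CPM in 2 of 3 healthy and 1 of 4 CIA mice. The filter thus favoured a lower estimate in CIA for both. Junb stood at 1630 to 2605 CPM in healthy and 815 to 1598 in CIA mice. Junb, which each group alone carried past the filter, was lower in every CIA mouse than in every healthy mouse, as were Fos and, in all, 8.42% of the genes tested. Fosb, Jund, Egr1, Ier2, Dusp1, and Zfp36 had too few UMIs for the test there; Jund and Egr1 had 0 UMIs in S3.

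Granulocyte markers moved with the same groups. Camp, Ngp, S100a8, and S100a9, the listed granulocyte markers, summed to 924 to 8229 CPM in macrophages of healthy joints and to 33190 to 59260 in those of CIA joints. Joint granulocytes had 270500 to 418600 CPM of these markers and a median Fos level of 334 CPM. The macrophage markers were 15490 to 25880 CPM in healthy and 18560 to 31790 in CIA mice, with 9 or 10 of 10 detected in each mouse. Mitochondrial UMIs made up 5.01% to 8.77% in healthy and 3.69% to 12.4% in CIA mice. S3 and S8, the CIA mice lowest in Fos, had 12.4% and 11.6%, against 5.25% and 3.69% in S1 and S5. The part of granulocyte RNA or of the mitochondrial share in the Fos result was not tested.

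**Figure D2:**
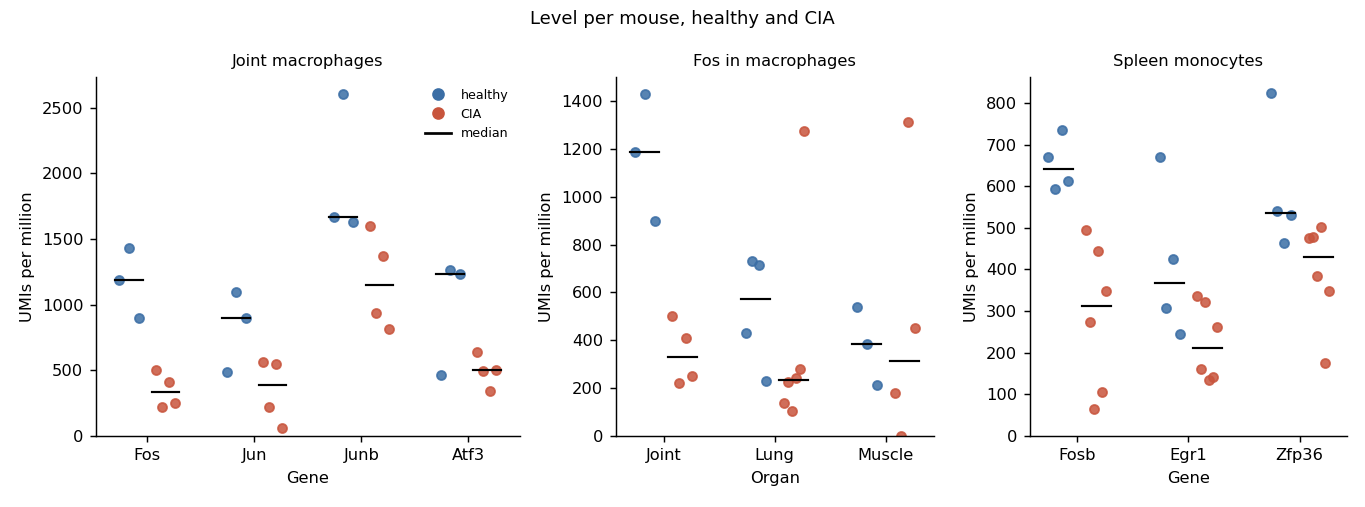
CPM in each mouse (points; blue healthy, red CIA; bars are medians) for 4 genes in joint macrophages, for Fos in macrophages of 3 organs, and for 3 genes in spleen monocytes. Fos in joint macrophages and Fosb in spleen monocytes separate the groups, whereas Fos overlaps between the groups in lung and muscle macrophages.

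In spleen monocytes, Fosb was called lower in CIA mice. It stood at 670, 594, 736, and 612 CPM in H3, H4, H6, and H7, and at 64.2 to 495 CPM in CIA mice (median 312, n = 6). No CIA mouse reached the level of a healthy mouse, with S3 and S6 the lowest on 1 and 3 UMIs. The log2 fold change was -1.35 ± 0.37 (adjusted p = 0.0494, with 6.8% of 456 genes called). This call lies next to the threshold. The filter asked for 318 CPM in 4 mice, which 4 of 4 healthy and 3 of 6 CIA mice reached, and with no filter the log2 fold change was -1.06 (adjusted p = 0.628). Within the experiment CIA alone it was -1.30 (adjusted p = 0.187). The call was also lost without any of H3, H4, H6, H7, S2, S3, S5, S6, or S8 (adjusted p from 0.058 to 0.138) and without cells of shared barcodes (log2 fold change -1.32, adjusted p = 0.0625).

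Among the other genes in spleen monocytes, Egr1 had a log2 fold change of -1.14 ± 0.38 and Zfp36 of -0.80 ± 0.27 (adjusted p = 0.104 and 0.105). Jun had -0.90 ± 0.34 and Fos -0.63 ± 0.33 (adjusted p = 0.16 and 0.34). Atf3, Ier2, and Dusp1 had estimates between -0.11 and -0.03. The median over the 10 genes was -0.59, against -0.03 over all genes tested, and Fosb was the only member without overlap of the groups in this direction (1.54% of all genes tested). Granulocyte markers were 722 to 1021 CPM in healthy and 2679 to 24010 in CIA mice, and their part was not tested. In the same cells, Ccl2, a chemokine for monocytes and a known AP-1 target, was higher in CIA (2.22 ± 0.60, adjusted p = 0.045), the only listed target tested there.

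No member was called in the other cell types. In lung macrophages, where 6.51% of genes were called, 6 of 10 genes were tested, with a median log2 fold change of -0.42 (0.00 over all genes). The filter asked for 292 CPM in 4 mice. Ier2 reached it in 4 of 4 healthy and 3 of 6 CIA mice, and Fos in 3 of 4 healthy and 1 of 6 CIA mice. The filter thus favoured a lower estimate in CIA for both, whereas each group alone carried the other 4 past it. Fos was 430, 732, 716, and 228 CPM in healthy mice and 105 to 1276 in CIA mice (median 234, n = 6), the highest being S8. Spp1 (osteopontin), a listed AP-1 target, was lower there (-1.32 ± 0.37, adjusted p = 0.035).

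In joint fibroblasts, all 10 genes had negative estimates, from -0.79 for Fosb to -0.15 for Egr1 (median -0.41, 0.00 over all genes). None passed the test, with 1.38% of 1014 genes called. Summed levels were 12899, 9630, and 13224 CPM in H3, H4, and H7 and 11357, 6790, and 10920 in S1, S3, and S5. Only S3 lay below the healthy mice, whereas S1 and S5 lay within their range. S3 also had the highest mitochondrial share among these sums (10.3%). The part of S3 in these estimates was not tested. The stromelysin gene Mmp3, a classical AP-1 target, was higher in CIA in the same cells (4.00 ± 0.71, adjusted p = 0.032), the only 1 of 10 listed targets that passed. Of 14 tested among other immediate early genes, 0 passed.

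In Basal III cells, the keratinocytes of skin, 8 of 10 genes had negative estimates and the median was -0.54, with 0% of 1280 genes called. Ier2 had -0.93 ± 0.32 and Atf3 -0.82 ± 0.27 (adjusted p = 0.65 for both). Egr1 stood at 674, 987, 810, and 666 CPM in healthy mice and 332 to 643 in CIA mice, without overlap, as in 0.703% of all genes. Its log2 fold change was -0.62 ± 0.22 (adjusted p = 0.65).

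Spleen B cells (median -0.16, 0% called) and spleen NK cells (median -0.68 over 7 genes, 0% called) likewise gave no call. Summed levels in B cells were 6292, 11078, 6268, and 6579 CPM in healthy mice and 4523 to 10291 in CIA mice. Here H4 and S1 stood above the other mice of their groups.

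In muscle, estimates were mixed. Muscle fibroblasts had a median of 0.29 over 7 tested genes (0% of 173 called), and Egr1 and Jun were higher in every CIA than in every healthy mouse, as were 2.31% of all genes. Egr1 was 1588, 1684, 1180, and 1219 CPM in healthy mice and 3226, 2060, 2479, and 1750 in S1, S2, S5, and S6. Muscle macrophages had a median of 0.46 over 8 genes (0.183% called). This rested on S5, whose summed level was 11292 CPM, against 3344 to 5280 CPM in the other CIA mice and 3965 to 5547 in healthy mice. Among these CIA mice, only the muscle of S5 had no red cell lysis, so mouse and lysis cannot be told apart here. Without S5 the median was -0.15 over 7 genes, of which 2 were positive. Jund, at 2.15 ± 0.67 (adjusted p = 0.63), did not overlap between the groups, like 3.3% of all genes tested, but it passed the filter through CIA mice alone (3 of 4 against 0 of 3 healthy mice). Jund rested on 0, 2, and 7 UMIs in the healthy mice H4, H6, and H7. Muscle T cells (median -0.15, 0.102% called) and skin fibroblasts (median 0.03, 0% called) gave no call, although Atf3 and Jund did not overlap in muscle T cells, where CIA was lower (4.19% of all genes).

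**Figure D3:**
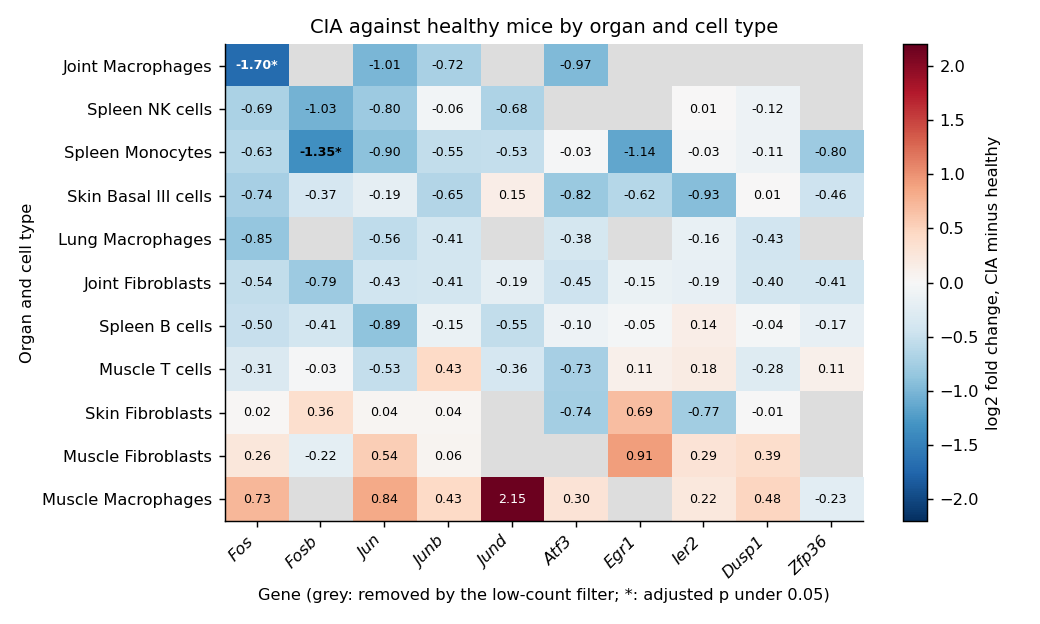
log2 fold change (CIA minus healthy) of each gene in the 11 organ and cell type comparisons, ordered by their median; grey cells were removed by the filter on low counts and an asterisk marks an adjusted p below 0.05. Fos in joint macrophages (-1.70) and Fosb in spleen monocytes (-1.35) carry the asterisks, and muscle macrophages (0.46 with S5, -0.15 without) and fibroblasts lie at the positive end.

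Over all annotated cells of an organ, where the mixture of cell types enters, no member was called in 50 tests, with 0.373% of tests called over all genes. Fewer cells of a type and less RNA per cell cannot be told apart in these sums. The median log2 fold change of the 10 genes was -0.45 in joint (0.127% called), -0.33 in lung (5.1%), -0.16 in muscle (0.055%), -0.35 in skin (0%), and -0.48 in spleen (0.137%). The organs came from the same mice, so these values are not independent of each other. In joint, Atf3 had the largest estimate (-1.13 ± 0.43, adjusted p = 0.32) and was lower in every CIA than in every healthy sample, as was 4.15% of genes. In spleen, Fosb (-0.98 ± 0.36, adjusted p = 0.55) and Jund (-0.62 ± 0.27, adjusted p = 0.74) did not overlap, with 1.57% of genes alike. In lung, leaving out S8 gave a call for Fos (-1.26, adjusted p = 0.032). Spp1 was the only listed gene called over whole organs, lower in CIA lung (-1.27 ± 0.35, adjusted p = 0.042).

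The difference of the disease effect between organs was tested in fibroblasts and macrophages, and no member was called in 60 tests (0.586% of tests over all genes). The largest estimates were in macrophages between joint and muscle, where all 10 genes had a lower effect in joint (median -1.72) and 2.41% of genes were called. Without S5 this median was -1.37 and that between lung and muscle -0.44. Jund differed by -3.29 ± 0.94 (adjusted p = 0.058) and Fosb by -2.83 ± 0.89 (adjusted p = 0.099). With DESeq2 and with RLE factors, Jund passed (-3.58, adjusted p = 0.018, and -3.39, adjusted p = 0.0495). Both genes rested on low counts here. Taken organ by organ, Fosb was removed by the low-count filter in macrophages of joint and of muscle. Jund was removed in joint and passed in muscle through CIA mice alone (3 of 4 against 0 of 3 healthy mice). For Fos the difference was -2.36 ± 0.98 (adjusted p = 0.25), so its lower level in CIA was not shown to be particular to joint macrophages. Medians were -0.64 between joint and lung macrophages (0.11% called) and -1.14 between lung and muscle macrophages (1.2%). In fibroblasts, they were -0.62 between joint and muscle (0.176%), -0.31 between joint and skin (0%), and 0.36 between muscle and skin (0%).

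Organs were compared within a cell type to ask how far these genes follow the tissue and its preparation. In 14 contrasts, 9 of 133 tests of the members were called, 8 higher and 1 lower in the organ named before the other, with 7.36% of tests called over all genes. The 8 were all in fibroblasts against skin.

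Fos was higher in fibroblasts of joint and of muscle than in those of skin. It stood at 1472 to 3054 CPM in joint (median 2447, n = 6), 1577 to 2984 in muscle (median 2034, n = 8), and 529 to 1480 in skin (median 1085, n = 9). No muscle fibroblast sum was as low as any of skin, and of the 6 joint sums 5 were above all of skin. The log2 difference was 1.42 ± 0.25 for joint minus skin (adjusted p = 0.00015) and 1.16 ± 0.24 for muscle minus skin (adjusted p = 0.00093), and both remained called in all 21 alternative analyses. These contrasts called 27.9% and 22.8% of the 842 genes, so a call is common in them.

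Egr1 was likewise higher, by 0.74 ± 0.25 in joint (adjusted p = 0.030) and by 1.03 ± 0.24 in muscle (adjusted p = 0.0025). Its levels were 947 to 1638 CPM in joint, 1180 to 3226 in muscle, and 472 to 1839 in skin, so that the ranges overlapped. Ier2 was higher by 0.74 ± 0.26 in joint and by 0.75 ± 0.26 in muscle (adjusted p = 0.037 for both). Jund passed only for joint minus skin (0.84 ± 0.30, adjusted p = 0.039) and Fosb only for muscle minus skin (0.90 ± 0.29, adjusted p = 0.025). The other genes had positive estimates in both contrasts, from 0.28 for Junb in joint to 0.60 for Atf3 in joint. No member passed the test between joint and muscle (median -0.03, 3.44% called). With the mouse as a block, since the same animals gave several organs, 3 of the 9 calls held: Fos in both contrasts and Egr1 for muscle minus skin. The blocked log2 differences of the others were 0.67 for Egr1, 0.78 for Ier2, and 0.64 for Jund for joint minus skin and 0.85 for Fosb and 0.63 for Ier2 for muscle minus skin (adjusted p from 0.138 to 0.277).

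The other listed genes did not all move this way. In joint minus skin, 0 of 12 other immediate early genes were higher and 3 lower, led by Klf6 (-1.55 ± 0.22, adjusted p = 9.2e-06), Btg1 (-1.40 ± 0.29), and Rhob (-1.11 ± 0.36). In muscle minus skin, Klf6 (-1.53 ± 0.21) and Btg1 (-0.95 ± 0.29) were lower and 0 of 12 higher. Among feedback regulators, Spry2 was lower in both contrasts (-1.02 ± 0.37 and -1.48 ± 0.41) and Socs3, an inhibitor of cytokine receptors, higher in muscle (1.24 ± 0.37). Of 10 heat shock genes tested, Dnaja1 (-0.91 ± 0.29) and Hsp90aa1 (-0.83 ± 0.26) were lower in joint. Among AP-1 target genes, Spp1 (5.81 ± 0.89) and Timp1 (2.13 ± 0.64) were higher in joint than in skin, and Mmp3 (-2.55 ± 0.63), Ccl2 (-2.24 ± 0.74), and Cd44 (-2.05 ± 0.41) lower in muscle than in skin. Spp1 (3.85 ± 0.78) and Timp1 (3.63 ± 0.85) were also higher in joint than in muscle.

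Other measures moved with these organs too. Mitochondrial UMIs made up 9.61% to 15.3% in skin fibroblasts, 4.03% to 10.3% in joint, and 3.11% to 9.59% in muscle fibroblasts. The summed fibroblast markers were 8607 to 29930 CPM in skin, 19200 to 56560 in joint, and 11890 to 42300 in muscle, with 7 or 8 of 8 detected in each mouse. Erythrocyte markers were 0 to 159 CPM in skin and 712 to 64290 in muscle fibroblasts, and granulocyte markers 0 to 493.1 in skin and 275 to 15530 in muscle. The enzyme differed as well, and so did red cell lysis within muscle. The part of each of these was not tested.

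**Figure D4:**
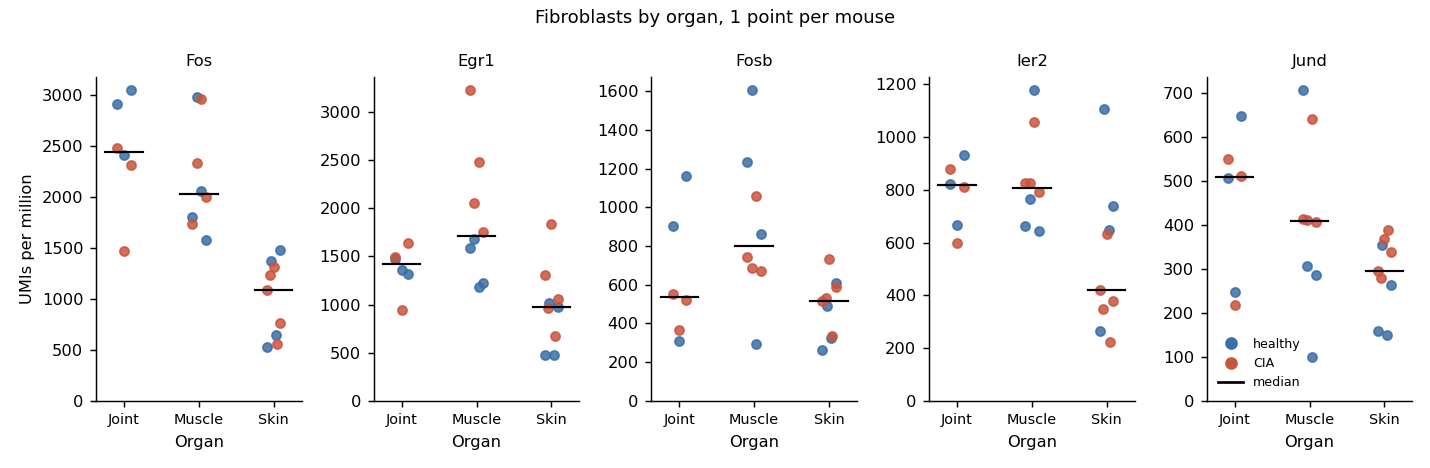
CPM of 5 genes in fibroblasts of joint, muscle, and skin, with 1 point per mouse (blue healthy, red CIA) and the median over mice as a bar. Fos lies lowest in skin (529 to 1480), and the other 4 genes overlap more between organs.

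T cells, NK cells, and granulocytes were present both in spleen, which was not digested, and in digested organs. In T cells, no member was called with edgeR between muscle and spleen (median -0.38, 1.98% called), joint and spleen (median -0.03, 0.564% called), or joint and muscle (median 0.10, 1.69% called). Summed levels were 3747 to 8712 CPM in spleen (n = 6), 3049 to 6690 in muscle (n = 6), and 2698 to 13753 in joint (n = 6). For muscle minus spleen, Junb had the highest estimate (0.80, 95% interval 0.01 to 1.59, adjusted p = 0.27) and Fos the lowest (-1.01, interval -2.03 to 0.01, adjusted p = 0.28). Crem, a cyclic AMP responsive factor, was the only listed gene called there (2.96 ± 0.58, adjusted p = 0.0074), and it was lower in joint than in muscle (-3.96 ± 0.71, adjusted p = 0.0041). With DESeq2, Ier2 passed for muscle minus spleen (-0.83, adjusted p = 0.047). Between cells labelled NK cells in muscle and in spleen no member passed the test (median -0.27 over 9 genes, 0% called), with Junb at 0.41 (interval -0.09 to 0.92).

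In granulocytes, Dusp1 was lower in joint than in spleen (-1.58 ± 0.43, adjusted p = 0.027, with 8.34% of 1103 genes called). It stood at 209, 260, 128, 181, and 95 CPM in H3, S1, S3, S5, and S8 of joint and at 657, 409, and 347 CPM in S1, S2, and S3 of spleen, without overlap. Jun (-1.22 ± 0.40, adjusted p = 0.059) and Ier2 (-1.29 ± 0.40, adjusted p = 0.0505) were estimated in the same direction, and Atf3 in the other (1.01 ± 0.66, adjusted p = 0.37). Ier2 passed with DESeq2, RLE factors, sums of at least 5 cells (-1.50, adjusted p = 0.000242), and without S3, and Jun with DESeq2, sums of at least 5 cells, and without S3. With the mouse as a block the Dusp1 difference was -1.59 (adjusted p = 0.15), and without S1 it was -1.50 (adjusted p = 0.18). It also lost the call without H7, S2, S5, or S8. All spleen granulocyte sums are from CIA mice and all muscle ones from healthy mice, so that muscle minus spleen (median -0.06, 0% called) and joint minus muscle (median -0.43, 0% called) lean on the disease term. In the joint granulocytes, Hmox1 (4.40 ± 0.70), Cxcl1 (2.94 ± 0.89), and Plaur (2.23 ± 0.48), all listed AP-1 targets, were higher than in spleen, as was the heat shock gene Dnaja1 (1.68 ± 0.51), and Klf2 was lower (-1.48 ± 0.43).

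Macrophages and endothelial cells gave no call between organs with all mice and edgeR's TMM factors. Medians over the tested members were 0.11 for macrophages of joint minus lung (14.6% called), -0.22 for joint minus muscle (2.15%), and -0.33 for lung minus muscle (28.4%), where Zfp36 had the largest estimate (-0.87 ± 0.34, adjusted p = 0.051). Zfp36 passed there with plain library sizes (-0.98, adjusted p = 0.022) and without H7 or S2. Without S5, Atf3 passed in lung minus muscle (0.95, adjusted p = 0.0064) and in joint minus muscle (1.04, adjusted p = 0.028). Of the other listed genes, Spp1 (2.43 ± 0.64), Rgs1 (1.28 ± 0.43), Sgk1 (0.97 ± 0.36), and Cxcl2 (0.96 ± 0.31) were higher and Atf4 (-0.76 ± 0.24) lower in lung than in muscle macrophages, and Btg1 was lower in joint than in lung (-1.06 ± 0.32). Endothelial cells of joint and muscle, the cells of the highest level, had a median of -0.33 and 0% of 597 genes called. Their muscle sums came from H3, H4, H7, and S5 and their joint sums from H3, H4, S1, S5, and S6. With S5 as the only CIA mouse in muscle, this contrast leans on the disease term.

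**Figure D5:**
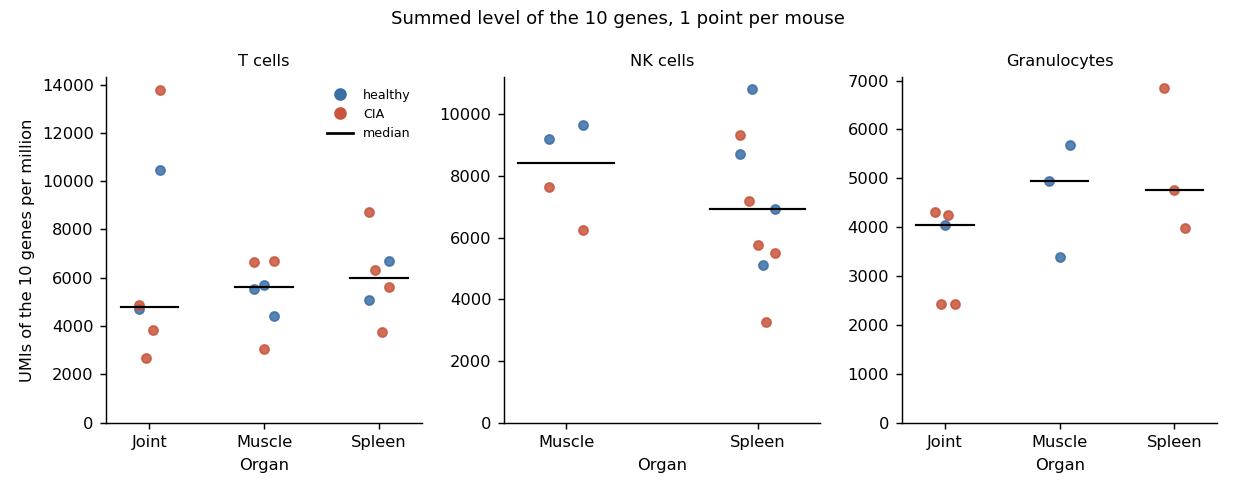
Summed CPM of the 10 genes in T cells, NK cells, and granulocytes of each organ, with 1 point per mouse (blue healthy, red CIA) and the median as a bar. Points of the undigested spleen overlap those of digested muscle in all 3 cell types and those of joint in T cells and granulocytes.

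The 10 genes varied together between mice within a cell type. After the mean of each organ and cell type was subtracted from log2(CPM + 10), the correlation between members over 146 sums had a median of 0.43 (0.18 to 0.59 over the pairs). Each gene correlated with the mean of the other 9 by 0.48 (Atf3) to 0.69 (Jun). The sums share mice and libraries, so these are descriptions. With median UMIs per cell the mean of the members correlated by 0.14.

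Outside the set, the gene most like the mean of the members was Nr4a1, an immediate early nuclear receptor (r = 0.61). Other genes high in this order were Nfkbia, the inhibitor of NF-kB (0.56), Malat1 (0.54), mt-Nd1 (0.50), Tgfb1 (0.47), Crip1 (0.46), Ier3 (0.46), Snord118 (0.45), and Rn7sk (0.44). The median over the 5693 genes compared was 0.02.

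Mice differed in this shared level. Mouse S3 was below the mean of the cell type in 12 of 14 sums (median deviation -0.70 on the log2 scale) and S8 in 8 of 11 (-0.34), whereas H4 was below it in 3 of 17 (0.42). The other mice with a score of 8 had medians of 0.30 (S1) and 0.07 (S2), and healthy mice had medians of -0.11 to 0.42.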

How the data were processed

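Single-cell libraries of 48 organ samples were made with Seq-Well. The authors aligned reads with STAR to GRCm38 and deposited a table of UMI counts (genes by cells), with a text label of the cell type; the submitters' processing notes also name GRCh38, mm9, Picard, and bcl2fastq. No column fell outside the series. For each mouse, counts were summed over cells of an organ and type, keeping sums of at least 10 cells and groups of at least 3 mice. Sums were tested with edgeR 4.0.16 (R 4.3.3; TMM factors, filterByExpr, quasi-likelihood F test, Benjamini-Hochberg, threshold 0.05), a different test from the study's own model, which could not be repeated here. Organ contrasts carried disease as a term. DESeq2 1.42.0 was an alternative. Code was tested on simulated data. Doublets were not called. The same animal gave several organs, so mouse was a block in an alternative for organ contrasts. Over all detected genes, deviations of sums of 1 mouse from different organs had a median correlation of 0.00 (-0.19 to 0.13). This does not show that organs of 1 mouse are independent for the 10 members. Their mean in S3 lay below that of the cell type in 12 of 14 sums. Depth was 17748 to 1645734 UMIs per sample, and intervals cover 95%. The members and lists were chosen with earlier results of these data known. The genes named are the members, the listed genes that passed the test (at most 3 per list and comparison), and those among the 10 genes most correlated with the members' mean; some items are not reported here.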

Additional observations from a re-analysis of the deposited data

Results flagged for a closer look

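In 47 groups of 4 to 10 mice tested for a distant sample, 3 mice stood apart, where chance gives about 1 in 20 groups. Among CIA mice, the summed level of the 10 genes in spleen B cells was 10291 CPM in S1, with the next mouse at 6626 CPM (n = 6). Among healthy mice, it was 11078 CPM in H4, with the next at 6579 CPM (n = 4). Ier2 in muscle fibroblasts stood at 1059 CPM in S5, with the next CIA mouse at 827 CPM (n = 4).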

How the results depend on the processing

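Among the 9 organ calls, Fos in fibroblasts kept its call against skin in 21 of 21 alternatives in both contrasts, and Egr1 for muscle minus skin in 20. Fos in joint macrophages kept its call in 17 of 19, being lost with no filter on low counts (-1.12, adjusted p = 0.608) and in the experiment CIA alone. Of these 19, leaving out H6, S2, or S6 repeated the main fit, since these mice gave no joint macrophage sum. The alternatives other than no filter kept the filter rule, which Fos passed in the main fit through healthy mice. Fosb in spleen monocytes kept its call in 5 of 21. For CIA against healthy by cell type, the count of 2 calls was 1 with RLE factors, plain library sizes, members left out of the scaling, experiment as a term, at least 20 cells, or no cells of shared barcodes (chosen after seeing the data), and 0 with no filter or the experiment CIA alone. With mouse number as a replicate block it was 1 (healthy and CIA mice of 1 number are different animals, so the number pairs nothing). It was 1 to 2 with each mouse left out, and over whole organs 0 to 1. The 9 calls between organs became 3 with no filter, 4 in the experiment CIA alone, 3 with the mouse as a replicate block, and 4 to 11 with each mouse left out. The 0 calls for a differing disease effect became 1 with DESeq2 or RLE factors and 0 to 1 with each mouse left out. The cause of these changes was not tested. Small sums limit the depth, with as few as 4 Fos UMIs in a mouse in joint macrophages and fewer in some other cell types.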

Other observations

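The 1144 cells without a deposited type, present in all 48 samples, held the 10 genes at 0 to 22390 CPM, with a median of 5312 CPM.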
